A study of Mus musculus with 28 samples.

Results

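The measurement described here is a difference of differences: how much more, or less, a gene's RNA moved with RA839 in macrophages that have Nrf2 than in macrophages that lack it. It was taken on the 16 arrays of the compound experiment, out of 28 in the series, and across 18193 genes. RA839 is a small molecule reported to bind Keap1. Cells were grown from bone marrow of 12-week-old C57BL/6 J mice that were Nrf2+/+ or Nrf2-/-, and were kept for 4 h with RA839 or with the solvent alone, at a DMSO concentration of 0.2% in every culture. The groups were Nrf2+/+ with DMSO, Nrf2+/+ with RA839, Nrf2-/- with DMSO and Nrf2-/- with RA839, with 4 arrays each that the design text calls biological replicates. The other 12 arrays held Nrf2+/+ macrophages that had received a control siRNA or an siRNA against Keap1 (siKeap1-1 or siKeap1-2), and serve below as a separate readout. The sources used here give neither the dose of RA839 nor the number of mice, nor which part of Nfe2l2 is missing in the Nrf2-/- mice. Loss of Nrf2 cannot be told apart from any other difference between the mice, or between their cultures.

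Nrf2, encoded by Nfe2l2, is a transcription factor that Keap1 holds down by handing it to an E3 ubiquitin ligase for degradation. When Keap1 is blocked, Nrf2 builds up, pairs with a small Maf protein and binds antioxidant response elements near genes of glutathione synthesis, thioredoxin reduction, detoxification, NADPH supply and iron handling. In macrophages it is also known to restrain inflammatory gene expression. The comparison asks which RNA responses to a Keap1 binder differ when Nrf2 is missing.

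Values are log2 intensities, so a difference of 1 means that the fold change in Nrf2+/+ was 2 times that in Nrf2-/-. Each array with RA839 was paired with the array of the same number and genotype with DMSO, which gave 4 paired differences per genotype, called Nrf2+/+ pairs and Nrf2-/- pairs below. The difference is the mean of the Nrf2+/+ pairs minus the mean of the Nrf2-/- pairs, given ± its standard error with a limma p-value adjusted over all 18193 genes (two-sided). A gene passed at an adjusted p under 0.05. Nfe2l2 itself checked the labels: its probe set read 12.72 ± 0.20 (SD, n = 4) in Nrf2+/+ with DMSO and 3.40 ± 0.11 (SD, n = 4) in Nrf2-/- with DMSO. On the RA839 array of Nrf2+/+ pair 2, the Gapdh control probe sets were 3.74 higher at the 3′ end than at the 5′ end on the log2 scale, against 0.77 to 1.00 on the other 15 compound arrays. Nrf2-/- arrays 1 and 2 also stood apart from arrays 3 and 4. The correlation of deviations from the group means ran up to 0.55 between arrays 1 and 2 or 3 and 4, and down to −0.65 across these sets. Macrophage markers were bright in every group: none of the 11 measured was dim (group mean under 4), and their summed level lay between 16.48 and 16.74 on every array.

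RA839 moved RNA differently in the genotypes for 66 of 18193 genes (0.363%). The response was higher in Nrf2+/+ for 61 genes (0.335%) and lower for 5 (0.0275%). The 61 rose by a median of 1.08 in Nrf2+/+ (quartiles 0.81 and 1.46), and their median response in Nrf2-/- was 0.00 (quartiles −0.06 and 0.04). Their median difference was 1.19, and 36 of them differed by at least 1. The median over all genes was −0.01. In each of the 4 Nrf2+/+ pairs the median of the 61 lay between 1.01 and 1.12, and in each Nrf2-/- pair between −0.01 and 0.02. All 61 lay above 0 in each of the 4 Nrf2+/+ pairs, and 55 had a mean response in Nrf2-/- within 0.25 of 0. No gene passed for RA839 in Nrf2-/- by limma (0 of 18193; 787 at an unadjusted p under 0.05, smallest adjusted p = 0.607), while 486 passed in Nrf2+/+. The fit gave each gene a single spread for both genotypes, although the median SD of the pairs was 0.23 in Nrf2+/+ and 0.13 in Nrf2-/-. The lack of calls in Nrf2-/- therefore does not show that these cells had no response.

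**Figure D1:**
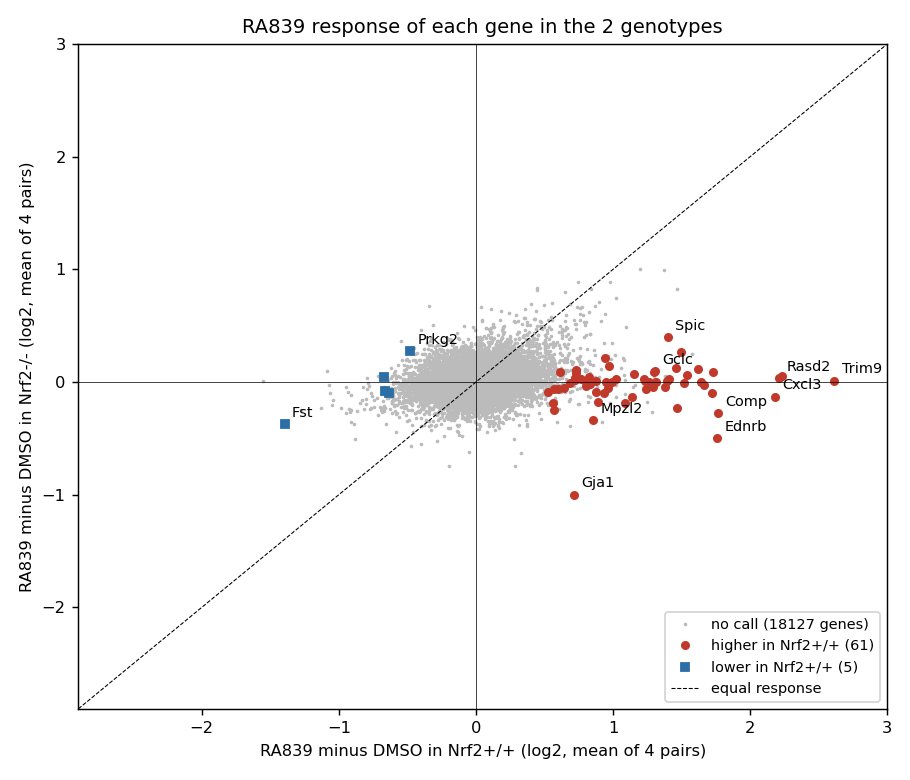
Response to RA839 of each of the 18193 genes in Nrf2+/+ (horizontal axis) and Nrf2-/- macrophages (vertical axis), each the mean of 4 pairs on the log2 scale. Red circles are the 61 genes with a higher response in Nrf2+/+, blue squares the 5 with a lower one, grey points the genes that did not pass, and the dashed line marks equal responses; the red circles lie along the horizontal zero line, with Gja1 well below it.

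The paired differences of the genotypes did not overlap for any of the 66 genes, and over all genes for 7.28%; the fit used the same pairs, so this describes the calls and adds no support. The standard error had a median of 0.14 over all genes, and the 95% interval of the difference lay wholly within ±1 for 17589 genes (96.7%). Without adjustment, 792 genes were higher and 772 lower at p under 0.05. The fit that ignored the pairs called 21 genes, all higher, of which 16 were among the 66. Without Nrf2+/+ pair 2 the count was 105, of which 59 were among the 66. The calls of Fam124a, Slc40a1, Spic and Fst ended then, as did those of Six4, Il10ra and 1 gene with a clone name. Leaving out another pair gave 21 to 40 calls. With only Nrf2-/- pairs 1 and 2, or only 3 and 4, 2 and 4 genes passed. Leaving out at least 1 of the 8 pairs ended 47 of the 66 calls.

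The promoter sequences below give the letters behind a simple match, shown because the antioxidant response element has the core TGACNNNGC. Of the 61 genes with a higher response, 48 had at least 1 RefSeq promoter window (250 bases before to 50 after the start, assembly GRCm38.p6), and 11 of these (22.9%) held TGACNNNGC on either strand. Over all genes with a window the share was 2334 of 14452 (16.2%). Of the 5 genes with a lower response 2 had a window, and 0 of them held the match. A match is only these letters and no measured binding. Printed are the named genes whose match, with 10 bases on each side, lies wholly before the start; 5 of the 11 genes meet this, and Srxn1, Me1, Ppard and others do not. Each line shows the match in capitals, 5′ to 3′ on the strand that holds it; Slc6a9 has a match in 2 windows.
Gclm, chr3:122245413-122245441, minus strand: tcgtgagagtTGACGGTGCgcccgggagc
Mafg, chr11:120633751-120633779, plus strand: ctcgccgggtTGACCGTGCtcctgcagag
Slc6a9, chr4:117849294-117849322, plus strand: tgaaagtaatTGACGCTGCccagcccggc
Slc6a9, chr4:117855492-117855520, plus strand: gtttccggctTGACTTGGCtgcttggtat
Ddit4l, chr3:137623616-137623644, plus strand: aaaggtgaccTGACCCTGCaggggcgggc
Calr3, chr8:72435324-72435352, plus strand: tcttgccctcTGACTCTGCatgtacacca

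Of 13 measured genes of glutathione synthesis and cystine uptake, 3 passed, all higher, and the median of the list was 0.18. Gclc encodes the catalytic subunit of glutamate-cysteine ligase, the rate-limiting enzyme of the pathway. It read 9.98, 10.15, 10.11 and 9.92 in Nrf2+/+ with DMSO and 11.22, 11.10, 11.55 and 11.51 with RA839. In Nrf2-/- it read 8.63, 8.57, 9.03 and 9.05 with DMSO and 8.80, 8.71, 9.04 and 9.13 with RA839. Every Nrf2+/+ array thus lay above every Nrf2-/- array, and only the Nrf2+/+ arrays with RA839 were separate from their own controls. The difference was 1.21 ± 0.14, so the fold change in Nrf2+/+ was 2.31 times that in Nrf2-/- (adjusted p = 0.00786).

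Gclm, the modifier subunit of the same ligase, rose by 1.18, 0.69, 1.53 and 1.23 in the Nrf2+/+ pairs and changed by 0.07, −0.07, 0.20 and 0.08 in the Nrf2-/- pairs. The lowest Nrf2+/+ pair, pair 2, lay above the highest Nrf2-/- pair, and the difference was 1.09 ± 0.17 (adjusted p = 0.0306). The call of Gclm ended without the replicate block, and without any single pair except Nrf2+/+ pair 2 (adjusted p up to 0.461). The other probe set of Gclm gave 0.93 ± 0.15 (adjusted p = 0.0580 over all probe sets). Gss, glutathione synthetase, rose by 1.35, 1.92, 1.25 and 1.30 in Nrf2+/+ and changed by −0.14, 0.41, −0.03 and 0.25 in Nrf2-/-. Its difference was 1.33 ± 0.18 (adjusted p = 0.0197), or 1.18 without Nrf2+/+ pair 2 (adjusted p = 0.0166). The call of Gss ended without Nrf2+/+ pair 1 or 4 and without Nrf2-/- pair 1, 3 or 4 (adjusted p up to 0.0826).

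Slc7a11, the cystine importer that feeds the pathway, did not pass. It changed by 0.87, 0.39, 0.69 and 1.08 in Nrf2+/+ and by −0.02, 0.10, −0.11 and −0.18 in Nrf2-/-, a difference of 0.81 (95% interval 0.48 to 1.15, adjusted p = 0.0760). Its pairs did not overlap, and without Nrf2+/+ pair 2 the difference was 0.94 and passed (adjusted p = 0.0178). A dimmer second probe set of Slc7a11 gave 1.67 ± 0.16 and passed in the fit over all 34945 probe sets (adjusted p = 0.00645). The other 9 members of the list did not pass.

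The remaining redox enzymes split. Of 10 thioredoxin and peroxiredoxin genes 1 passed: Srxn1, sulfiredoxin, which repairs over-oxidised peroxiredoxins. Srxn1 rose by 0.80, 0.65, 0.68 and 0.79 in the Nrf2+/+ pairs and changed by 0.15, −0.04, 0.09 and 0.11 in the Nrf2-/- pairs. The pairs of each genotype were tight, and the difference was 0.65 ± 0.09 (adjusted p = 0.0201). Txnrd1, thioredoxin reductase, did not pass in spite of similarly tight pairs. It changed by 0.38, 0.28, 0.37 and 0.40 in Nrf2+/+ and by 0.01, 0.02, 0.07 and 0.09 in Nrf2-/-, a difference of 0.31 (95% interval 0.13 to 0.49, adjusted p = 0.277). That value comes from its brightest probe set, with a mean level of 13.02. A dimmer probe set of Txnrd1 (mean level 6.46) gave 1.10 ± 0.19 (adjusted p = 0.0772 over all probe sets). Srxn1 had the same pattern, with 1.02 ± 0.11 from a probe set at a mean level of 9.80 (adjusted p = 0.00891 over all probe sets).

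Nqo1, a quinone reductase and the usual marker gene of Nrf2, started from very different levels. It read 11.87, 11.84, 11.63 and 11.90 in Nrf2+/+ with DMSO and 6.98, 7.25, 6.92 and 6.79 in Nrf2-/- with DMSO. It changed by 0.56, 0.69, 0.60 and 0.67 in the Nrf2+/+ pairs and by 0.58, 0.22, 0.22 and 0.55 in the Nrf2-/- pairs. Its pairs overlapped, and the difference of 0.23 (95% interval −0.02 to 0.49, adjusted p = 0.602) did not pass. Among 22 genes of quinone, carbonyl and epoxide detoxification 1 passed, Ptgr1, prostaglandin reductase, at 0.63 ± 0.08 (adjusted p = 0.0185). None of 22 measured glutathione S-transferase genes passed; the highest, Gsta4, was at 0.57 (95% interval 0.25 to 0.90, adjusted p = 0.261), and the list's median was 0.03.

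Iron, NADPH and export each gave 1 gene. Slc40a1 encodes ferroportin, the cell's iron exporter, and was the 1 gene of 15 on haem breakdown and iron that passed. It rose by 0.66, 0.96, 0.94 and 1.31 in Nrf2+/+ and changed by −0.03, −0.30, 0.04 and 0.07 in Nrf2-/-, a difference of 1.02 ± 0.15 (adjusted p = 0.0259; 0.0544 without Nrf2+/+ pair 2). Hmox1, haem oxygenase, changed by 0.68, 0.41, 0.73 and 0.99 in Nrf2+/+ and by −0.06, −0.02, 0.48 and 0.24 in Nrf2-/-. Its lowest Nrf2+/+ pair lay below its highest Nrf2-/- pair, and the difference of 0.54 (95% interval 0.18 to 0.90, adjusted p = 0.357) did not pass. Me1, malic enzyme, which makes NADPH, was the 1 of 12 on NADPH supply (0.78 ± 0.10, adjusted p = 0.0177). Abcc1, which exports glutathione conjugates, was the 1 of 10 ABC exporters (0.84 ± 0.11, adjusted p = 0.0149). Abcb6, another exporter, fell just outside the threshold at 0.66 ± 0.11 (adjusted p = 0.0518).

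Among 14 genes of Nrf2, its partners and its regulators, 2 passed. Mafg, a small Maf that binds DNA together with Nrf2, read 9.95, 9.92, 9.68 and 10.10 in Nrf2+/+ with DMSO and 10.77, 10.68, 10.62 and 10.88 with RA839. In Nrf2-/- it read 9.33, 9.35, 10.03 and 9.91 with DMSO and 9.29, 9.35, 9.94 and 9.99 with RA839. Arrays 1 and 2 of Nrf2-/- were thus lower than arrays 3 and 4 with either treatment, and the pairs removed this offset. Mafg rose by 0.77 to 0.93 in the Nrf2+/+ pairs against −0.09 to 0.07 in the Nrf2-/- pairs, a difference of 0.84 ± 0.09 (adjusted p = 0.00524). Osgin1, a growth inhibitor induced by oxidative stress, differed by 1.22 ± 0.17 (adjusted p = 0.0212). Keap1 was at 0.33 ± 0.11 (adjusted p = 0.407). Nfe2l2 was at −0.29 ± 0.10 (adjusted p = 0.462), with its Nrf2-/- arrays near the bottom of the scale.

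**Figure D2:**
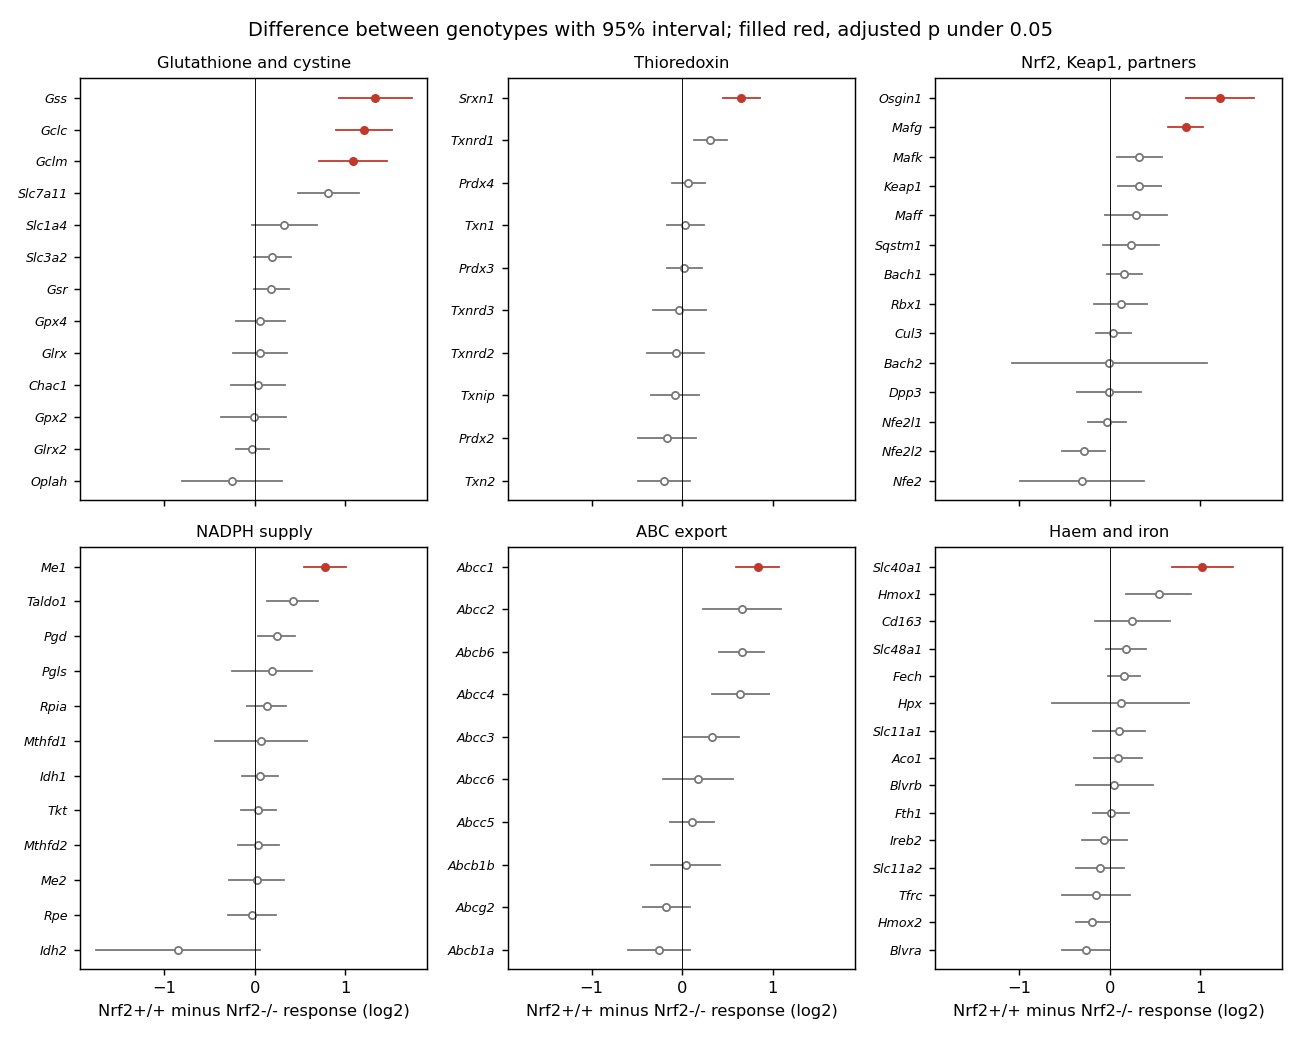
Difference between genotypes in the RA839 response (log2, Nrf2+/+ minus Nrf2-/-; point with 95% interval) for every measured gene of 6 lists, ordered by value within each list. Filled red points passed at an adjusted p under 0.05. Some open points lie close to them, such as Abcc2 (0.66), Abcb6 (0.66) and Abcc4 (0.64) beside Abcc1 (0.84).

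Over the 118 measured genes of all 8 Nrf2-related lists, 10 passed, all higher, with a median difference of 0.07. Over 375 genes of the other 20 pathway lists 2 passed higher, 1 lower, and the median was −0.03. Over all genes 0.363% passed, so a short list without a call does not set its genes apart from the rest. The lists without any gene that passed numbered 18 of 28. They covered the proteasome, chaperones, ATF4 targets, immediate early genes, p53 targets, interferon-stimulated genes, cytokines, sterol synthesis, glycolysis, the respiratory chain, cell cycle and lysosome, and their medians lay between −0.13 and 0.23. Within them some single genes had large but variable differences, such as Adm, adrenomedullin, at 1.32 ± 0.24 (adjusted p = 0.0760) and the AP-1 subunit Fosl1 at 1.15 ± 0.26 (adjusted p = 0.174). The other 53 of the 66 genes were in no pathway list.

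The largest differences were outside the classic redox genes. Trim9 encodes an E3 ubiquitin ligase best known from neurons. It read 5.02, 5.29, 4.91 and 6.06 in Nrf2+/+ with DMSO and 7.70, 7.72, 7.86 and 8.46 with RA839. Its difference was 2.60 ± 0.14 (adjusted p = 0.000266). In Nrf2-/- it lay between 2.58 and 2.83 on all 8 arrays, near the bottom of the scale, where a response could not be read, so the difference is in effect the Nrf2+/+ response. A second probe set gave 3.12 ± 0.16. Both can match related sequences by their design class, and the 2 probe sets without that class gave 0.18 ± 0.17 and 0.10 ± 0.16 at mean levels of 2.65 and 2.36.

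Cxcl3, a chemokine that draws neutrophils through Cxcr2, rose by 1.99, 2.15, 2.15 and 2.43 in the Nrf2+/+ pairs. In the Nrf2-/- pairs it changed by 0.18, 0.71, −0.74 and −0.68, so pairs 1 and 2 lay above 0 and pairs 3 and 4 below. The difference was 2.31 ± 0.30 (adjusted p = 0.0177). The call of Cxcl3 ended without the replicate block, with the pair as a random block and with a spread per genotype. It also ended without Nrf2+/+ pair 3 or 4 and without Nrf2-/- pair 1, 3 or 4. Across these settings its adjusted p ran up to 0.643. Cxcl3 was the 1 of 24 chemokine genes that passed. Cxcl2, a close relative, was at 0.56 ± 0.32 (adjusted p = 0.658), and Ccl4 at −0.78 ± 0.14 (adjusted p = 0.0728). The list's median was −0.08.

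Ednrb, the endothelin B receptor, read 8.83 to 10.48 in Nrf2+/+ with DMSO and rose by 1.65, 0.81, 2.06 and 2.51. In Nrf2-/- it read 3.76 to 4.60 with DMSO and changed by −0.73, −0.86, 0.00 and −0.40, giving a difference of 2.26 ± 0.34 (adjusted p = 0.0291). Its 2 dimmer probe sets gave 0.34 ± 0.25 and 0.17 ± 0.17. The call of Ednrb ended with the mean of all its probe sets, and without any single pair except Nrf2+/+ pair 2 (adjusted p up to 0.116). Ddit4l, an inhibitor of mTOR signalling, rose by 2.34, 1.70, 2.31 and 2.57 in Nrf2+/+ and changed by −0.47, 0.13, 0.31 and 0.26 in Nrf2-/-. The difference of Ddit4l was 2.17 ± 0.22 (adjusted p = 0.00524).

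Further signalling and surface genes followed. Rasd2, a Ras-like GTPase, differed by 2.17 ± 0.31 (adjusted p = 0.0235), with Nrf2+/+ pairs of 2.04, 3.29, 1.85 and 1.66; without pair 2, the highest, it was at 1.81 (adjusted p = 0.00196). Its call ended without Nrf2+/+ pair 1 or 3 and without any single Nrf2-/- pair (adjusted p up to 0.0971). A dimmer probe set of Rasd2 gave 0.98 ± 0.18. Comp, an extracellular matrix protein of cartilage, differed by 2.04 ± 0.22, and Cdcp1, a membrane protein phosphorylated by Src kinases, by 1.82 ± 0.28. Vegfd, a growth factor for lymphatic vessels, was at 1.69 ± 0.18, and Prkaa2, a catalytic subunit of the energy sensor AMPK, at 1.64 ± 0.23. Dimmer probe sets of Prkaa2 gave 0.57 ± 0.22 and 0.38 ± 0.18, and the mean over its probe sets gave 0.86 and did not pass. Bambi, a decoy receptor of the TGF-beta family (1.30 ± 0.21), and Cdkn2b, the cell cycle inhibitor p15 (1.33 ± 0.16), also responded more in Nrf2+/+. Their adjusted p-values lay between 0.00621 (Comp) and 0.0381 (Bambi). Fam13a (1.64 ± 0.14), Ptpn14, a tyrosine phosphatase (1.51 ± 0.15), Gdap10 (1.70 ± 0.14), Calr3, of the calreticulin family (1.47 ± 0.22), Treml4, a receptor of myeloid cells (1.38 ± 0.15), and Fam124a (1.38 ± 0.20) completed the upper range.

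**Figure D3:**
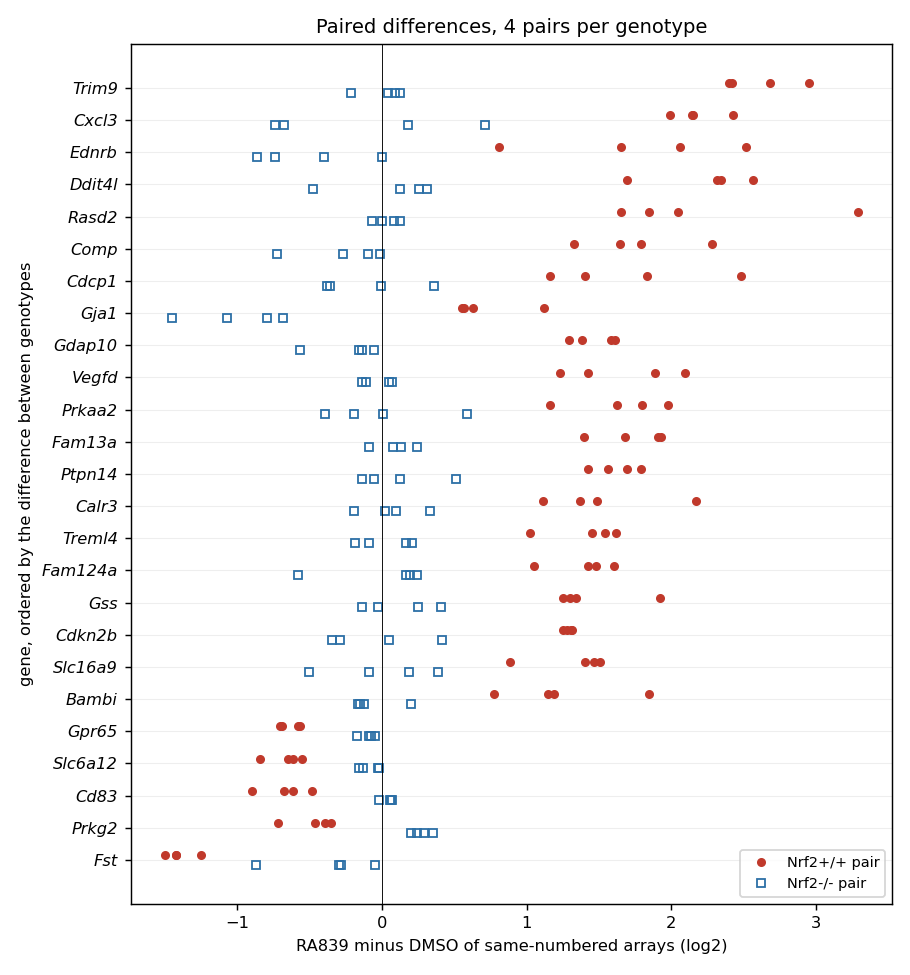
Paired differences (RA839 minus DMSO of same-numbered arrays, log2) of the 20 genes with the largest positive differences and the 5 with negative ones (clone names left out), with 4 Nrf2+/+ pairs (filled red circles) and 4 Nrf2-/- pairs (open blue squares) each. The circles and squares of a gene never overlap; in the 5 genes at the bottom the circles lie to the left of the squares.

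Slc6a9, the glycine transporter GlyT1, read 10.23, 9.69, 9.73 and 10.75 in Nrf2+/+ with DMSO and 11.57, 11.07, 11.16 and 11.80 with RA839. In Nrf2-/- it read 8.37, 8.75, 8.51 and 8.69 with DMSO and 8.59, 8.78, 8.61 and 8.70 with RA839. Its Nrf2+/+ controls were spread out, but the paired rises of 1.34, 1.38, 1.43 and 1.06 were close together, and the difference was 1.21 ± 0.11 (adjusted p = 0.00339). A dimmer probe set of Slc6a9 gave 0.22 ± 0.10. Slc16a9, of the monocarboxylate transporter family, differed by 1.32 ± 0.21 (adjusted p = 0.0370). Ampd3, AMP deaminase, rose by 1.01, 1.15, 1.06 and 1.12 in Nrf2+/+ and changed by −0.16, 0.00, −0.36 and −0.21 in Nrf2-/- (difference 1.27 ± 0.10, adjusted p = 0.00247). Panx1, a channel that releases ATP, was at 0.99 ± 0.10 (adjusted p = 0.00524), and Pcx, pyruvate carboxylase, at 0.87 ± 0.09 (adjusted p = 0.00621). The nuclear receptor Ppard was at 0.85 ± 0.12 (adjusted p = 0.0206), though a dimmer probe set of Ppard gave −0.26 ± 0.18. Jade3, a chromatin protein, was at 1.03 ± 0.10 (adjusted p = 0.00401), from rises of 0.80 to 1.05 in Nrf2+/+ and changes of −0.23 to 0.04 in Nrf2-/-.

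Gja1, Mpzl2 and Spic were picked for a large mean response in Nrf2-/-, which is itself a term of the called difference. None of these responses passed in Nrf2-/- by limma (adjusted p = 0.607 for Gja1, the smallest over all genes). Gja1 encodes a connexin, the protein of gap junctions. It rose by 0.63, 0.55, 0.57 and 1.12 in Nrf2+/+ and changed by −0.79, −0.69, −1.07 and −1.45 in Nrf2-/-. All 4 pairs of a genotype thus had the same sign and the genotypes had opposite signs. The difference was 1.72 ± 0.19 (adjusted p = 0.00736). Of the 6 Gja1 probe sets 5 gave 0.95 to 1.72, and 1 gave −0.28 ± 0.12. Mpzl2, a cell adhesion protein, rose by 0.65, 1.12, 0.58 and 1.07 in Nrf2+/+ and changed by −0.52, −0.59, −0.12 and −0.12 in Nrf2-/-, where its DMSO levels were 3.40, 5.20, 2.98 and 2.86. The difference of Mpzl2 was 1.19 ± 0.17 (adjusted p = 0.0235); its dimmest probe set gave −0.16 ± 0.26. Spic, the transcription factor of iron-recycling macrophages, was the reverse case. It rose by 1.36, 1.44, 1.53 and 1.28 in Nrf2+/+ and changed by 0.48, −0.05, 0.57 and 0.60 in Nrf2-/-, a difference of 1.00 ± 0.15 (adjusted p = 0.0295; 0.0633 without Nrf2+/+ pair 2).

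**Figure D4:**
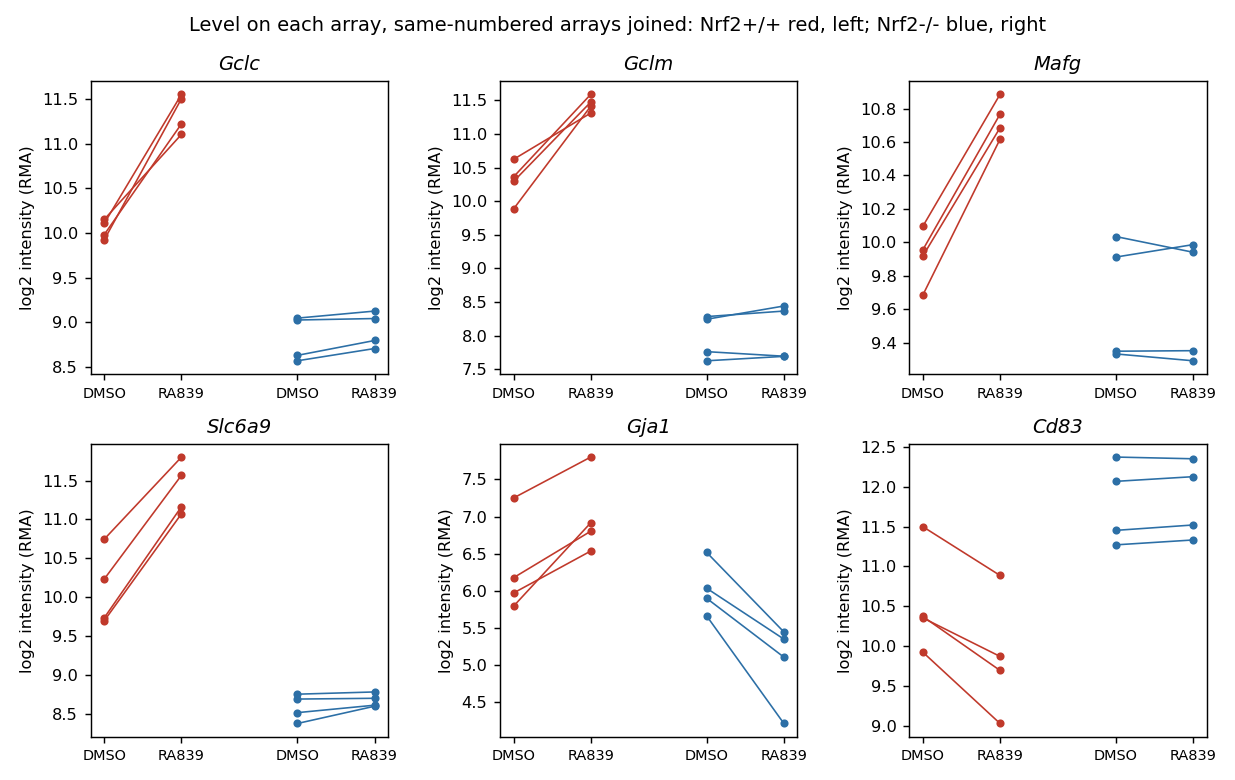
Level of 6 genes on each array (log2 RMA intensity; each panel has its own vertical range), with same-numbered arrays of a genotype joined, Nrf2+/+ red at the left and Nrf2-/- blue at the right. The lines of Gclc, Gclm, Mafg and Slc6a9 rise in Nrf2+/+ and are nearly flat in Nrf2-/-, those of Gja1 slope up in Nrf2+/+ and down in Nrf2-/-, and those of Cd83 slope down in Nrf2+/+ and are nearly flat in Nrf2-/-.

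The 5 genes with a lower response in Nrf2+/+ all had 4 Nrf2+/+ pairs below 0. Cd83, a surface protein of activated antigen-presenting cells, read 10.35, 9.92, 11.50 and 10.37 in Nrf2+/+ with DMSO and 9.87, 9.03, 10.89 and 9.69 with RA839. In Nrf2-/- it read 12.07, 12.37, 11.45 and 11.27 with DMSO and 12.13, 12.35, 11.52 and 11.33 with RA839. Arrays 1 and 2 of Nrf2-/- were again apart from 3 and 4, while the paired differences, −0.02 to 0.07, were all near 0. The difference was −0.71 ± 0.10 (adjusted p = 0.0273). Cd83 was the 1 of 15 genes of MHC class II and costimulation that passed, and 1 of the 15 lay above 0, with a list median of −0.20.

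Fst, follistatin, which binds activins, changed by −1.42, −1.50, −1.25 and −1.42 in Nrf2+/+ and by −0.29, −0.05, −0.28 and −0.87 in Nrf2-/- (difference −1.02 ± 0.17, adjusted p = 0.0423; 0.0895 without Nrf2+/+ pair 2). Its other probe set gave −0.07 ± 0.12. Prkg2, a cGMP-dependent protein kinase, changed by −0.35, −0.46, −0.39 and −0.72 in Nrf2+/+ and by 0.36, 0.20, 0.29 and 0.24 in Nrf2-/-, so the pairs of the genotypes had opposite signs (difference −0.75 ± 0.10, adjusted p = 0.0225). Dimmer probe sets of Prkg2 gave 0.11 ± 0.15 and −0.25 ± 0.18. Slc6a12, a betaine transporter (−0.58 ± 0.10, adjusted p = 0.0472), and Gpr65, a proton-sensing receptor (−0.54 ± 0.08, adjusted p = 0.0358), had smaller differences.

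Markers of macrophages and of other cell types were counted beside these genes. None of the 10 marker lists, with 93 measured genes, held a gene that passed, against 0.363% of all genes. Their medians lay between −0.20 and 0.09. The lowest were those of neutrophil and of mast cell markers, both at −0.20. There were 11 neutrophil and precursor markers, whose summed level was 13.48 to 13.64 in Nrf2+/+ with DMSO and 12.86 to 13.45 with RA839. In Nrf2-/- the sum was 12.78 to 13.22 with DMSO and 12.77 to 13.05 with RA839. Of these markers 2 or 3 were dim (mean under 4) in each group. S100a9, a neutrophil protein, was at −1.18 ± 0.35 (adjusted p = 0.364). The sum of 9 mast cell and basophil markers, 3 to 5 of them dim in a group, was 9.76 to 10.11 in Nrf2+/+ with DMSO and 9.27 to 9.77 with RA839. The Nrf2-/- arrays lay at 9.51 to 9.81 with DMSO and 9.45 to 9.69 with RA839. In these bulk samples fewer cells of a type and less RNA per cell cannot be told apart, and the part of such cells in the differences was not tested.

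Starting levels were counted for the 61 genes with a higher response. In DMSO, 36 of them were at least 1 lower in Nrf2-/- than in Nrf2+/+, and 25 were within 1 of it. In Nrf2-/-, 5 of the 61 were higher. DMSO levels of both genotypes are terms of the difference, and the share over all genes was not counted. Of the 61, 7 had a mean under 4 in Nrf2-/- with DMSO, a level at which RMA values compress change, against 18.2% of all genes.

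The siRNA arrays, which were not in the fit that called the 66 genes, gave a second readout of the Nrf2+/+ side. They held only Nrf2+/+ cells, so they cannot show a difference between genotypes. All 61 genes with a higher response also passed for RA839 in Nrf2+/+ by limma. The shares below are set against all genes, and those among the 486 genes that passed in Nrf2+/+ were not counted. They did enter the choice of probe set, by mean over all 28 arrays. Of the 61 genes with a higher response in Nrf2+/+, 54 were higher with siKeap1-1 than with the control siRNA, against 13.6% of all genes. With siKeap1-2 the number was also 54, against 11.4% of all genes. These were not all the same genes: 49 of the 61 were higher with both siRNAs and 12 were not, against 1286 of 18193 genes higher with both. The median change of the 61 was 1.08 with siKeap1-1 and 1.02 with siKeap1-2, and over all genes 0.02 and 0.03. With probe sets chosen on the 16 compound arrays alone, 65 genes passed, all among the 66, and 53 of the 60 higher ones were higher with each siRNA in turn. The call that ended was that of Six4, whose brighter probe set on those arrays gave 0.11 (adjusted p = 0.860). The siRNA comparisons share the 4 control arrays, and these arrays were normalised apart from the compound arrays, so levels were not set across the experiments.

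**Figure D5:**
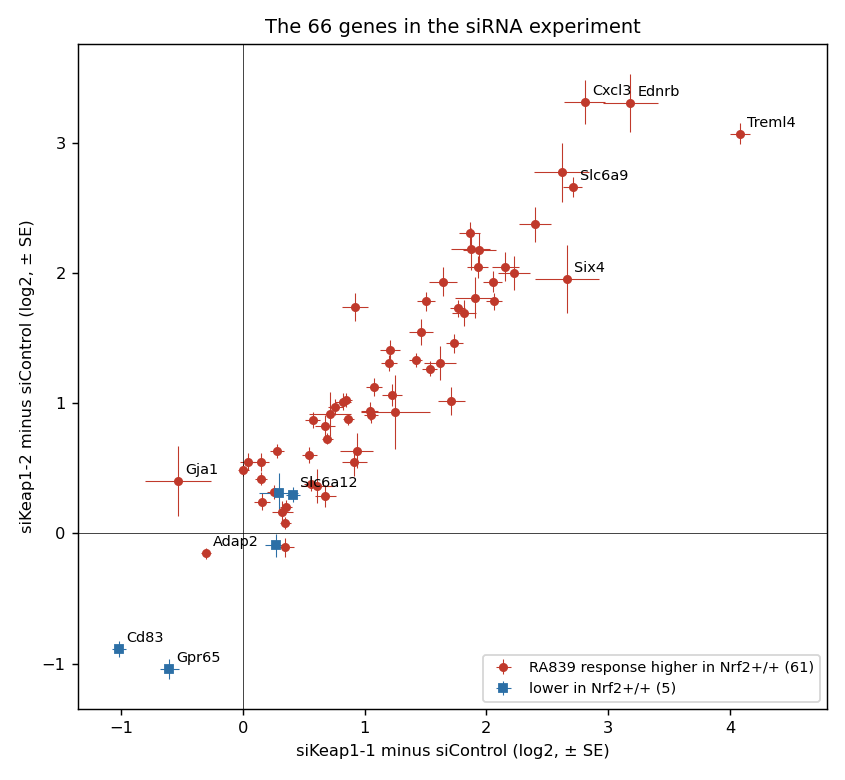
Change of the 66 genes with siKeap1-1 (horizontal axis) and siKeap1-2 (vertical axis) against the control siRNA (log2 ± standard error, 4 arrays per group, with shared controls). Red circles are the genes whose RA839 response was higher in Nrf2+/+, mostly at the upper right; blue squares are those with a lower one, with Cd83 and Gpr65 at the lower left.

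Among single genes Treml4 had the largest change with siKeap1-1, at 4.08, with 3.07 for siKeap1-2. Ednrb rose by 3.18 and 3.31, Cxcl3 by 2.81 and 3.31, Slc6a9 by 2.71 and 2.66, and Gclc by 2.05 and 1.94. Each of these passed for each siRNA. Slc6a9 was named because it passed for each siRNA in the same direction, so its rise there was set by the choice and adds no support. The exceptions differed in kind. Gja1 was at −0.53 with siKeap1-1 (adjusted p = 0.200) and 0.40 with siKeap1-2 (adjusted p = 0.354). Srxn1 was at 0.04 with siKeap1-1 (adjusted p = 0.740) and 0.55 with siKeap1-2 (adjusted p = 0.000602). Nqo1, whose RA839 response did not pass as different between genotypes, rose by 1.38 and 1.28. Adap2, named after its values were seen, rose more with RA839 in Nrf2+/+ but fell by 0.30 and by 0.15 with the siRNAs (adjusted p = 0.00125 and 0.0371).

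Of the 5 genes with a lower response, Cd83 fell by 1.02 with siKeap1-1 and by 0.89 with siKeap1-2, and Gpr65 fell by 0.60 and by 1.04. Slc6a12 went the other way and rose by 0.41 and 0.30. Fst was at 0.29 (adjusted p = 0.237) and 0.31 (adjusted p = 0.228), and Prkg2 at 0.27 (adjusted p = 0.0545) and −0.09 (adjusted p = 0.541).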

How the data were processed

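RNA was measured on Affymetrix mouse arrays. The deposited values were log2 intensities per probe set, made by the authors with RMA per the submitters' processing notes; the sources used here give no version or settings. Array medians lay between 5.61 and 5.71 (compound) and 5.91 and 5.96 (siRNA), and 0 pairs of arrays were identical. Gene names came from the platform annotation. Of 45101 probe sets, 34945 named 1 gene, 932 named several and were left out, and 34741 of the former matched RefSeq (GRCm38.p6) by gene identifier. Each of 18193 genes was read from its brightest probe set by mean over the 28 arrays.

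The fit used limma 3.58.1 in R 4.3.3 (lmFit, eBayes without trend) with a block for each replicate number within a genotype and Benjamini-Hochberg adjustment at 0.05. Numbers come from the labels. Same-numbered arrays deviated together in every pair (0.27 to 0.46 in Nrf2+/+, 0.66 to 0.70 in Nrf2-/-), so the block was kept; what a number stands for is not given, and p-values measure the spread between these samples. On simulated arrays of 18193 genes, 50 genes each were changed 1.5-, 2-, 3- and 4-fold in the same run. There this fit recovered 80% of genes changed 2-fold and 32% of those changed 1.5-fold, and 98% at 3-fold and at 4-fold. In that single run it made 14 false calls, and 0 calls when no gene was changed. The simulated noise was independent, with the same spread in both genotypes. In the data the median SD of the pairs was 0.23 in Nrf2+/+ and 0.13 in Nrf2-/-, so recovery there can differ. The siRNA arrays were fitted apart, with their replicate number as a block.

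The genes, lists and rules were chosen with earlier results of these data known. Named were Nfe2l2, Keap1 and 8 Nrf2 target genes; the 20 largest rises and 10 largest falls that passed; up to 6 passing members per pathway list; up to 12 genes that also passed for each Keap1 siRNA in the same direction; and the 5 passing genes with the largest Nrf2-/- response. Clone names were counted, not named. Genes just outside the threshold, list members that did not pass, S100a9, Six4, Il10ra, Adap2, Jag1, Gbe1 and Tshz1 were named after their values were seen.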

Additional observations from a re-analysis of the deposited data

Results flagged for a closer look

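The tested difference itself set the genotypes apart for 66 genes. In 11 of them every Nrf2+/+ pair had the opposite sign to every Nrf2-/- pair. Higher in Nrf2+/+ were Ednrb (2.26), Comp (2.04), Gja1 (1.72), Gdap10 (1.70) and Ampd3 (1.27). So were Mpzl2 (1.19), Jag1 (0.97), Gbe1 (0.74), Ptgr1 (0.63) and 1 gene with a clone name (0.82). Prkg2 (−0.75) was lower. Some Nrf2-/- pairs were close to 0, such as −0.0004 (Ednrb pair 3), −0.002 (Ampd3 pair 2) and −0.0032 (Jag1 pair 3). With DMSO the Nrf2-/- mean was 4.20 for Ednrb and 3.61 for Mpzl2, near the bottom of the scale. Of the 61 genes with a higher response, 10 had all 4 Nrf2-/- pairs below 0 and 6 had all 4 above 0. The share over all genes was not counted. Jag1 and Gbe1 were named after their values were seen.

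In 7 of 96 groups of 4 paired differences a single pair lay far from the others; chance alone gives about 1 in 20 such groups. Nrf2+/+ pair 2, whose RA839 array had the high 3′ to 5′ ratio, was the outlying pair for Gss (1.92, others 1.25 to 1.35), Slc16a9 (0.89, others at 1.40 or more) and Osgin1 (1.76, others 1.02 to 1.12). The part of RNA quality in these values was not tested. Nrf2+/+ pair 4 stood apart for Gja1 (1.12, others 0.55 to 0.63). In Nrf2-/-, pair 4 stood apart for Fam124a (−0.58, others 0.17 to 0.24) and Bambi (0.20, others −0.16 to −0.12), and pair 2 for Cd83 (−0.022, others 0.06 to 0.07).

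Of 10092 probe sets without a single named gene, 3 passed, all with a higher response in Nrf2+/+: 1440363_at (2.14), 1443673_x_at (1.49) and 1441895_x_at (1.23).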

How the results depend on the processing

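The count of 66 changed under many settings. There were 21 without the replicate block (21 higher, 0 lower), 61 with the pair as a random block (41 of the same genes), 106 with a trended and robust prior, 150 with array weights, and 54 with a spread per genotype. Leaving out each pair in turn gave 21 to 105 calls: 40, 105, 32 and 23 without Nrf2+/+ pairs 1 to 4, and 22, 29, 21 and 24 without Nrf2-/- pairs 1 to 4. With only Nrf2-/- pairs 1 and 2 there were 2 calls and with only pairs 3 and 4 there were 4; these settings were chosen after seeing the data and rest on fewer arrays. Leaving out at least 1 pair ended 47 of the 66 calls. Other choices of probe set or scale gave 55 to 74 calls, the threshold 0.01 gave 20 and 0.10 gave 92. With probe sets named _x_at, _s_at or _a_at left out, Gja1 reversed to −0.28 and Mpzl2 to −0.16, and Trim9 dropped to 0.18. Those values came from probe sets with mean levels of 4.96 (Gja1), 3.87 (Mpzl2, its dimmest) and 2.65 (Trim9). The calls of Ampd3, Comp, Ddit4l, Gclc, Gdap10, Jade3, Tshz1 (named after its values were seen) and Vegfd, and of 1 gene with a clone name, ended under no planned setting at the 0.05 threshold, though 5 of these 9 had no value among the brighter genes. With 4 pairs a genotype, differences near 1.5-fold were mostly missed in the simulation, so a gene that did not pass is not shown to respond alike.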
